A study of Helicoverpa armigera with 6 samples.

Results

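In the cotton bollworm *Helicoverpa armigera*, 180 of 17082 annotated genes (1.05%) were steady among 3 libraries from control larvae and erratic among 3 libraries from larvae injected with an siRNA against *HDAC3*. The genes were chosen by their measured values. Levels were FPKM, fragments scaled to transcript length and to the divisor of each library, and 1 was added to each value before any ratio was taken. A gene entered when its highest library was at least 16 times its lowest within the knockdown group and less than 4 times its lowest within the control group. The 180 genes were then grouped by the knockdown library that was highest and by whether the control mean was at least 10 FPKM (91 genes) or below it (89 genes). Because these values chose the genes, the spread within either group is given as a description, without a test.

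The word steady held in a different sense for the genes of low control level. Of the 89 genes with a control mean below 10 FPKM, 61 (68.5%) were under 3 FPKM in every control library, where the ratio of values with 1 added cannot reach 4 whatever the spread. Of all 180 genes, 17 had no control fragment at all. These genes were low or undetected in control larvae, and their small ratio says nothing of how evenly they were expressed. The other 28 of the 89 could have failed the control limit and did not. As a standard deviation of log2(FPKM + 1), the median spread in siNC was 0.54 for the 91 genes of higher control level and 0.30 for the 4071 genes that were steady in siNC and reached 15 FPKM in a siHDAC3 library, so the 91 genes were less even in controls than those genes.

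Newly molted final-instar larvae were injected with siNC, a control siRNA against a *Caenorhabditis elegans* gene, or with siHDAC3, an siRNA against the bollworm's own *HDAC3*, and RNA of whole insects was sequenced. There were 3 libraries a group, called replicates 1, 2 and 3. Not given in the sources used here are the strain, the number of larvae behind each library and the time from injection to collection. Nothing states that replicates came from separate insects, so p-values measure only the spread between these libraries. In whole insects, fewer cells of a type and less RNA per cell cannot be told apart.

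HDAC3 is a histone deacetylase that removes acetyl groups from the tails of histones and acts within the NCoR/SMRT corepressor complexes. Acetylated histones are generally found at actively transcribed genes. In the final larval instar of moths, juvenile hormone and 20-hydroxyecdysone time the change from feeding to metamorphosis, and large sets of genes are switched on and off within short intervals.

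The libraries held between 10084667 and 12389053 fragments on genes, counted with the transcripts outside the annotation included. The table gives gene identifiers, and 1 of the 17082, none of the 180, matched a named gene in the reference table used here (assembly ASM3070526v1). The level of *HDAC3* in each library and the markers of tissues were therefore not analysed here, and the function of the 180 genes is not given. Wide spread was not limited to the knockdown libraries: 252 genes reached a ratio of 16 within siHDAC3, 176 within siNC and 18 within both. Under the mirrored rule, wide in siNC and steady in siHDAC3, 125 genes entered, 3.16% of the 3961 genes that could have. The corresponding share for the 180 genes was 4.42% of the 4071 genes that were steady in siNC and reached 15 FPKM in a siHDAC3 library, here called eligible genes. The siNC libraries bore unequally on the mirrored set, which held 22 genes without siNC replicate 1 and 39 without siNC replicate 2.

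The ratio between the highest and lowest siHDAC3 library ran from 16.1 to 4108, with a median of 28.4. It lay between 16 and 32 in 102 genes, between 32 and 64 in 57 and at 64 or above in 21. Within siNC the median ratio of the same genes was 1.75, with a range from 1 to 3.88. Across all eligible genes the median ratio was 1.66 in siHDAC3 and 1.48 in siNC, where it is limited by the rule. As a standard deviation of log2(FPKM + 1), the median spread of the 180 genes was 0.42 in siNC and 2.55 in siHDAC3.

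**Figure D1:**
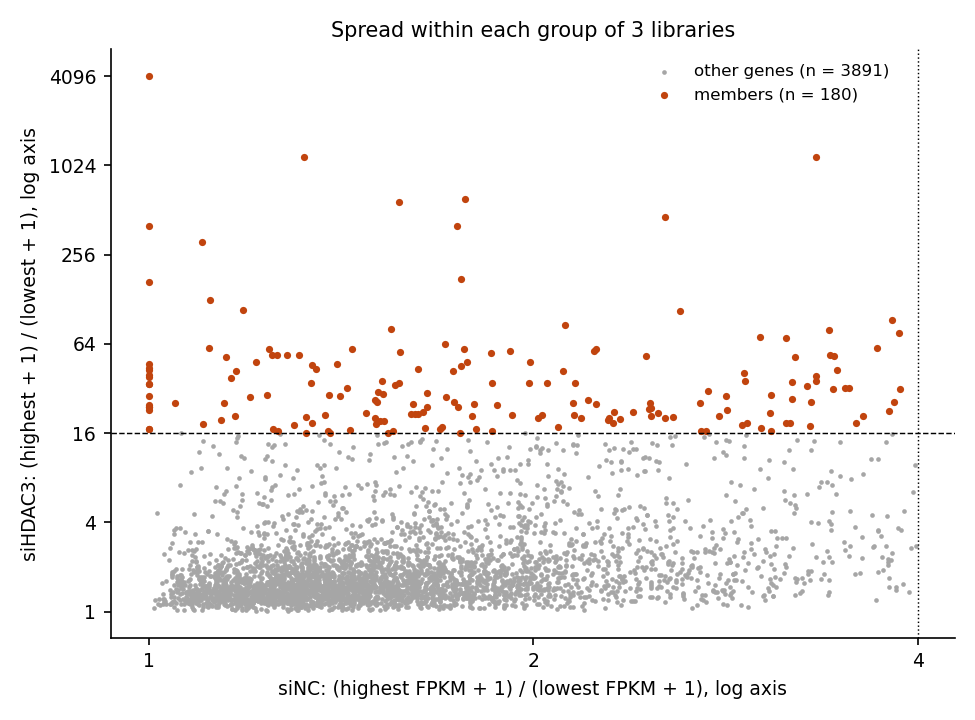
Ratio of the highest to the lowest library, with 1 FPKM added, within siNC (horizontal axis, log scale) and within siHDAC3 (vertical axis, log scale), 1 point a gene. Coloured points are the 180 genes, all above 16 in siHDAC3 and below 4 in siNC, grey points are the 3891 other eligible genes, and the median ratio of the 180 in siHDAC3 was 28.4.

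Counting error bore on a part of these ratios. The highest siHDAC3 library of a gene held 61 fragments at the fewest, 882285 at the most and 1190.5 in the median. When counting error was set against the rule, with the lower 95% Poisson bound for the highest library and the upper bound for the lowest, 135 of the 180 genes still entered and 45 did not. This alternative was chosen after seeing the data, and the bounds cover counting error only. In 33 genes exactly 1 siHDAC3 library held no fragment, and in 5 genes 2 held none.

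Genes at the borders of the rule differed little across it. Just inside the siHDAC3 limit stood HaOG208273 and HaOG204363, with ratios of 16.06 and 16.07, and just outside stood HaOG202603 and HaOG202568, both at 15.98. HaOG202603 had 70.1, 67.8 and 66.2 FPKM in siNC replicates 1, 2 and 3 and 0.438, 14.2 and 22.0 FPKM in siHDAC3 replicates 1, 2 and 3. Just inside the siNC limit stood HaOG205943 and HaOG216643, at 3.88 and 3.87, and just outside HaOG206485 and HaOG210831, both at 4.01. HaOG206485 had 47.9, 14.2 and 11.2 FPKM in siNC and 29.0, 45.4 and 1576 FPKM in siHDAC3. Both excluded genes thus look much like those that entered.

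The 3 siHDAC3 libraries did not contribute alike. Replicate 1 was the lowest library in 123 genes (68.3%), replicate 2 in 41 (22.8%) and replicate 3 in 11 (6.11%), with a tie for lowest in 5. Replicate 2 was the highest library in 92 genes (51.1%), replicate 3 in 48 (26.7%) and replicate 1 in 40 (22.2%). Among eligible genes replicate 1 was lowest in 39.97%, replicate 2 in 31.6% and replicate 3 in 28.3%, and the highest library was replicate 1 in 35.6%, replicate 2 in 40.4% and replicate 3 in 23.97%. The lowest place was thus held by replicate 1 more often among the 180 genes than among eligible genes, as a description of genes chosen on these values. Replicate 1 also carried the largest divisor behind the deposited FPKM, 16787200 fragments, where the siHDAC3 divisors began at 11829400. Under other scalings both the genes that entered and this order could move. Replicate 1 was lowest in 68.3% of 180 genes (178 shared) with median-of-ratios scaling, in 63.8% of 210 genes (177 shared) with quantile normalization and in 57.8% of 223 genes (163 shared) after scaling by the FPKM sum of every library.

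Taken pair by pair, a 16-fold ratio separated siHDAC3 replicates 1 and 2 in 142 genes (78.9%), replicates 1 and 3 in 78 (43.3%) and replicates 2 and 3 in 32 (17.8%). Replicate 2 was the higher of replicates 1 and 2 in 102 of the 142 genes, and replicate 1 in 40. Replicate 3 was the higher of replicates 1 and 3 in 62 of the 78. With 1 siHDAC3 library left out, the rule rests on the remaining pair, so these same counts return and cannot exceed 180. Thus 32 genes met the rule without siHDAC3 replicate 1, 78 without replicate 2 and 142 without replicate 3. Among the 32 genes, replicate 2 was the higher in 14 and replicate 3 in 18.

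The same ratio can come from either of 2 shapes, 1 library far below the others or 1 far above them. On a log2 scale, 111 genes had 1 low library and 69 had 1 high library. The low library was replicate 1 in 89 of the 111 genes, replicate 2 in 19 and replicate 3 in 3. The high library was replicate 1 in 23 of the 69 genes, replicate 2 in 27 and replicate 3 in 19, a more even division.

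**Figure D2:**
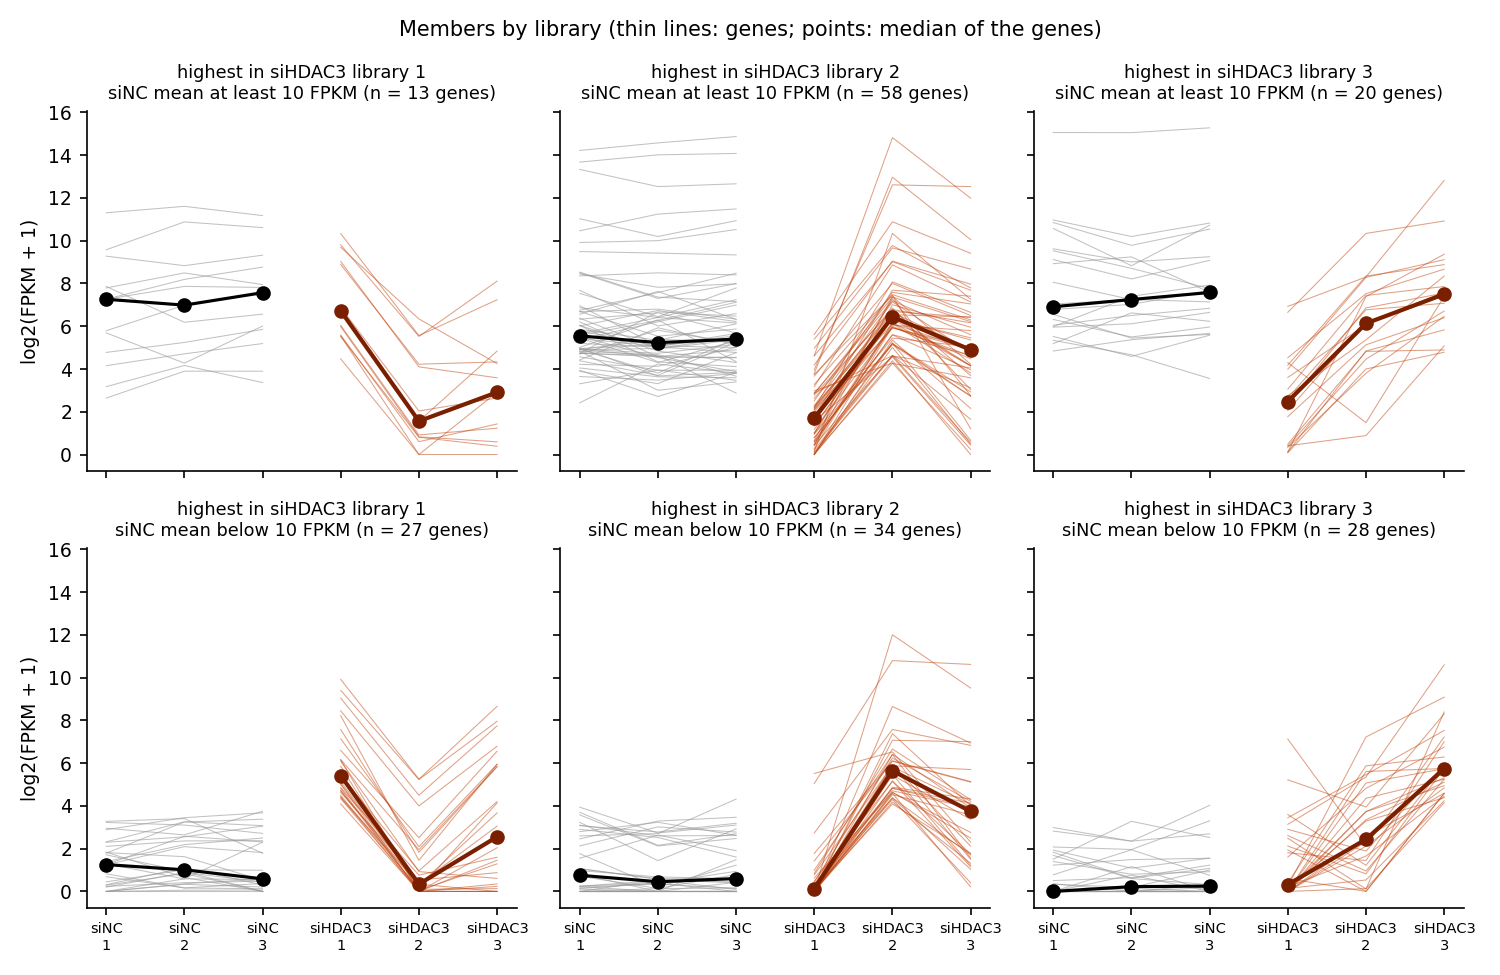
Levels of the 180 genes in each of the 6 libraries (log2 of FPKM with 1 added), with a panel for each highest siHDAC3 library and siNC level, a thin line for each gene and a heavy line for the median. Lines run close to level across siNC and fan out across siHDAC3, most often with replicate 1 at the bottom.

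In the 91 genes of higher siNC level, the median gene had 63.8, 68.4 and 68.2 FPKM in siNC replicates 1, 2 and 3. In siHDAC3 the medians were 3.62, 69.0 and 31.6 FPKM in replicates 1, 2 and 3. Replicate 1 lay below the whole siNC range in 81 of the 91 genes, within it in 1 and above it in 9. Replicate 2 lay below in 36, within in 18 and above in 37, and 29 of the 91 genes were within 2-fold of the siNC mean there. Replicate 3 lay below in 53, within in 13 and above in 25. Levels more than 10-fold below the siNC mean were found in 52 genes in replicate 1, 20 in replicate 2 and 24 in replicate 3.

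The 89 genes of lower siNC level showed another arrangement. Their medians were 0.612, 0.508 and 0.431 FPKM in siNC and 0.993, 16.1 and 18.6 FPKM in siHDAC3 replicates 1, 2 and 3. Replicate 1 was within 2-fold of the siNC mean in 34 genes, more often than replicate 2 (21) or replicate 3 (15). Because 1 was added to each value, a library with no fragment also counts as within 2-fold when siNC has none. HaOG212093 in replicate 1 is such a case, so these counts do not show expression at a control level. Replicate 1 lay above the siNC range in 45 genes, compared with 61 for replicate 2 and 70 for replicate 3. A level over 10-fold above the siNC mean was reached in 22, 38 and 50 genes in replicates 1, 2 and 3. A gene with little RNA in siNC could enter only by reaching about 15 FPKM in a siHDAC3 library, so the upward direction here follows from the rule.

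Across all 180 genes, the siHDAC3 libraries of 1 gene often stood on both sides of the control. In 76 genes at least 1 siHDAC3 library was above every siNC library and at least 1 below every siNC library, 46 of them at higher and 30 at lower siNC level. All 3 libraries were above siNC in 23 genes and below it in 26. All of those 26 had a siNC mean of at least 10 FPKM, which the rule fixes. Every gene had to reach 15 FPKM in a siHDAC3 library, so siNC libraries above all siHDAC3 libraries were above 15 FPKM too. In 38 genes some libraries were above and the others within the siNC range, and in 17 some were below and the others within.

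**Figure D3:**
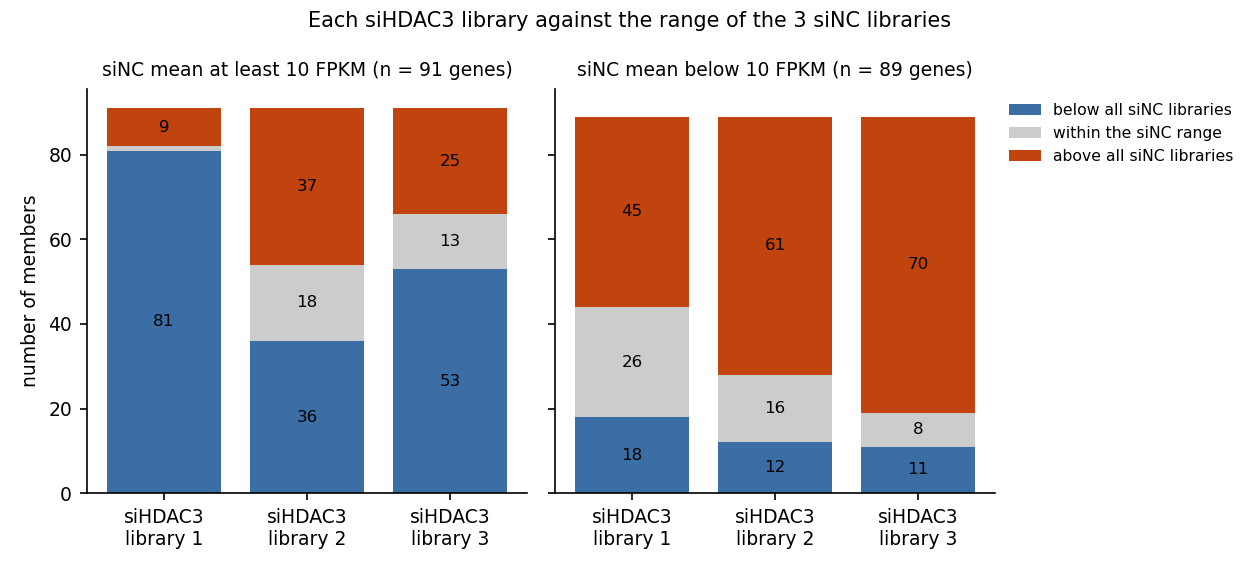
Number of the 180 genes whose level in each siHDAC3 library lay above, within or below the range of the 3 siNC libraries, by siNC level. At a siNC mean of at least 10 FPKM replicate 1 was below the range in 81 of 91 genes, while replicate 2 was divided into 37 above, 18 within and 36 below.

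Among genes highest in siHDAC3 replicate 2, the largest group, 58 had a siNC mean of at least 10 FPKM and 34 a lower one. Of the former, HaOG200074 had the widest ratio. It lies on scaffold KZ149944.1 from 505358 to 510462. Scaffold names and positions are those of the deposited table, and for their genome build nothing was given in the sources used here. It had 64.7, 27.7 and 18.7 FPKM in siNC replicates 1, 2 and 3 and 0.107, 1296 and 152.4 FPKM in siHDAC3 replicates 1, 2 and 3, a ratio of 1172. Its siHDAC3 values rested on 3, 25665 and 3684 fragments. One library was therefore far below and the others far above every control, and the group means of 37.0 ± 24.4 and 482.8 ± 708.4 FPKM (SD, n = 3 each) stand for none of the siHDAC3 libraries.

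The median gene of the same group by ratio was HaOG209212, on scaffold KZ149801.1 from 2669356 to 2671821. It had 28.8, 30.2 and 44.0 FPKM in siNC and 30.4, 811.7 and 406.6 FPKM in siHDAC3. Replicate 1 was at the control level, and the other libraries were above every control. Of the 34 genes of lower siNC level, HaOG212093 was the widest, on scaffold KZ150235.1 from 487 to 852. It had no fragment in any siNC library or in siHDAC3 replicate 1, whereas siHDAC3 replicates 2 and 3 had 4107 and 729.7 FPKM from 17780 and 3857 fragments. Set against the limit of 3 fragments over the siNC group, replicate 2 was at least 12812-fold higher. The median gene there, HaOG215629 on scaffold KZ149873.1 from 1027509 to 1029437, had 7.56, 5.07 and 5.12 FPKM in siNC and 5.65, 189.8 and 112.9 FPKM in siHDAC3. Like HaOG209212, it was at the siNC level in replicate 1 alone.

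Genes highest in siHDAC3 replicate 3 numbered 20 at higher and 28 at lower siNC level. The widest of the 20 was HaOG215417, on scaffold KZ149870.1 from 476106 to 481884, with 27.7, 40.4 and 49.8 FPKM in siNC and 0.0862, 165.9 and 659.5 FPKM in siHDAC3. Its order of libraries below and above the control was that of HaOG200074, with replicates 2 and 3 exchanged. The median gene, HaOG204364 on scaffold KZ149950.1 from 402232 to 414884, had 2005, 1173 and 1814 FPKM in siNC and 7.32, 172.5 and 231.0 FPKM in siHDAC3, so every siHDAC3 library was below every control. Its log2 change was -4.55 with a standard error of 1.22, and it did not pass the test across all genes (limma adjusted p = 0.0531). Without siHDAC3 replicate 1, its low library, the limma adjusted p was 0.0056, and without any other single library it was 0.0609 to 0.154. The gene was chosen for a spread to which replicate 1 contributed. Of the 28 genes, HaOG209435 was the widest, on scaffold KZ150099.1 from 248753 to 249845, with 3.23, 2.89 and 8.87 FPKM in siNC and 0.186, 148.5 and 542.5 FPKM in siHDAC3. The median gene, HaOG207557 on scaffold KZ149822.1 from 1641471 to 1653079, had 0, 0.199 and 0.238 FPKM in siNC and 0, 3.35 and 27.7 FPKM in siHDAC3. Its replicates 2 and 3 were above every control, replicate 3 far more so.

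Genes highest in siHDAC3 replicate 1 ran against the order of the rest, with 13 at higher and 27 at lower siNC level. HaOG201876, on scaffold KZ149808.1 from 2183288 to 2186586, was the widest of the 13. It had 619.9, 455.5 and 639.5 FPKM in siNC and 45.7, 0 and 6.52 FPKM in siHDAC3. Its highest siHDAC3 library was still below every control, and it fell by 6.33 on the log2 scale (standard error 1.27, adjusted p = 0.0216 from limma). Without siNC replicate 1, 2 or 3 its adjusted p was 0.0647, 0.0565 and 0.0827, and without siHDAC3 replicate 3 it was 0.0725. The median gene HaOG202088, on scaffold KZ149901.1 from 633502 to 634168, had 16.8, 25.1 and 35.5 FPKM in siNC and 64.7, 0.887 and 1.35 FPKM in siHDAC3. Here replicate 1 was above every control and replicates 2 and 3 were below every control.

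At lower siNC level, HaOG214539 was the widest of the 27, on scaffold KZ149860.1 from 26124 to 53327. It had 0.177, 0.329 and 0.394 FPKM in siNC and 297.0, 1.74 and 60.7 FPKM in siHDAC3. The median gene, HaOG205226 on scaffold KZ149972.1 from 233579 to 238486, had 2.52, 2.09 and 0.431 FPKM in siNC and 525.9, 21.6 and 213.3 FPKM in siHDAC3. In both genes all siHDAC3 libraries were above all siNC libraries. HaOG205226 rose by 5.77 on the log2 scale (standard error 1.12, adjusted p = 0.0195 from limma), and its adjusted p was 0.0505, 0.0789 and 0.0744 without siNC replicate 2, siNC replicate 3 and siHDAC3 replicate 3. HaOG214539 did not pass the test (log2 change 4.83 with a standard error of 1.57, limma adjusted p = 0.0877).

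**Figure D4:**
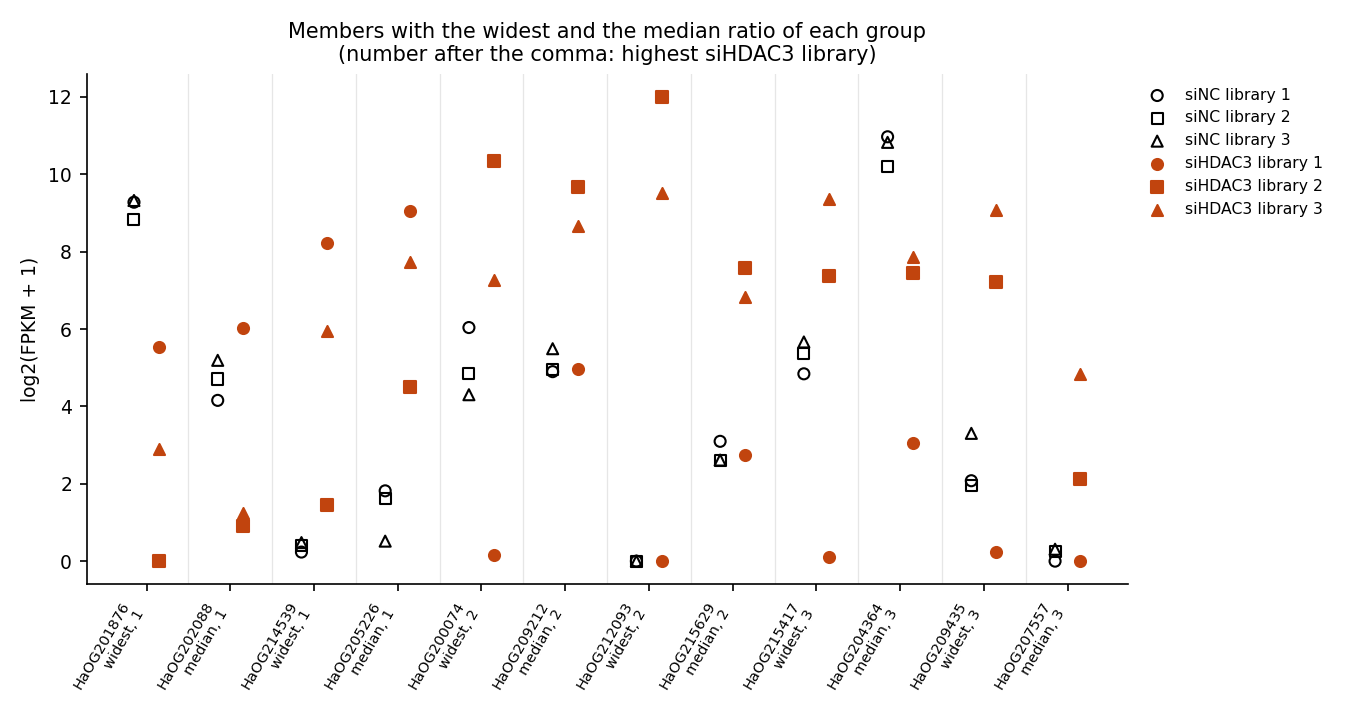
FPKM with 1 added (log scale) in each library for the widest and the median gene of each of the 6 groups, with siNC and siHDAC3 libraries marked apart. The groups are defined by the highest siHDAC3 library and the siNC level. HaOG200074, HaOG215417, HaOG209435 and HaOG202088 have siHDAC3 libraries both below and above all siNC libraries.

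The 180 genes took a large and uneven part of the sequenced RNA. They held 16.5%, 20.7% and 19.6% of the fragments on genes in siNC replicates 1, 2 and 3 and 1.92%, 17.5% and 9.28% in siHDAC3 replicates 1, 2 and 3. In siNC and in siHDAC3 replicate 2, most of this came from HaOG208731, HaOG208732 and HaOG208737, which lie on the same scaffold, KZ150082.1, between 211232 and 263281. Together they held 12.1%, 17.0% and 16.03% in siNC and 0.0187%, 11.5% and 2.12% in siHDAC3. The 3 were picked for having the most siNC fragments of the set, so leaving them out lowers the siNC share by construction. Without them, the other 177 genes held 4.36%, 3.73% and 3.61% in siNC and 1.90%, 6.08% and 7.15% in siHDAC3. Their share in siHDAC3 replicates 2 and 3 was above, not below, that of siNC, which depends on which genes were left out.

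The 3 abundant genes of KZ150082.1 did not keep the same order. HaOG208731 had 19101, 24409 and 29971 FPKM in siNC and 12.9, 8025 and 1061 FPKM in siHDAC3. HaOG208737 had 13106, 16574 and 17335 FPKM in siNC and 23.8, 28987 and 4069 FPKM in siHDAC3. It was above every control in replicate 2 and below every control in the others, whereas HaOG208731 was below every control throughout. HaOG208732, which starts 2701 bases after HaOG208731 ends, had 34191, 34039 and 39786 FPKM in siNC and 3.17, 72.5 and 173.3 FPKM in siHDAC3. Of the 3 it alone passed the test, having fallen by 9.90 on the log2 scale (standard error 1.28, limma adjusted p = 0.00476). HaOG208731 (log2 change -5.62, standard error 2.12, adjusted p = 0.128) and HaOG208737 (log2 change -3.44, standard error 2.38, adjusted p = 0.373) did not, by the same limma fit. No sequence of these genes was examined here, so whether they share reads was not tested.

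**Figure D5:**
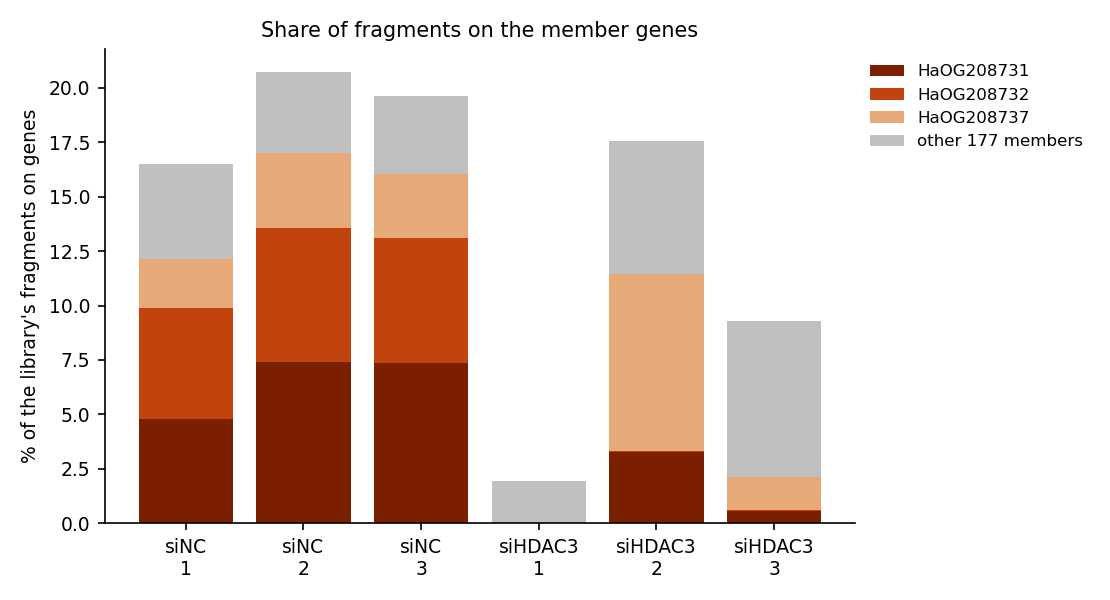
Percent of each library's fragments on genes that came from the 180 genes, stacked for HaOG208731, HaOG208732, HaOG208737 and the other 177. The total stands between 16.5% and 20.7% in siNC and at 1.92%, 17.5% and 9.28% in siHDAC3 replicates 1, 2 and 3.

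The 17 genes without a siNC fragment included genes at high level after siHDAC3 injection. Against 3 fragments over the siNC group, their highest siHDAC3 library was at least 44.0-fold to 12812-fold higher. That library was replicate 3 in 9 genes, replicate 2 in 7 and replicate 1 in 1. Replicate 1 held no fragment in 10 of the 17, and 5 genes had fragments in every siHDAC3 library. HaOG200399, on scaffold KZ149803.1 from 468220 to 471801, was one of these 5, with 138.5, 3.36 and 148.3 FPKM from 2106, 36 and 1941 fragments in siHDAC3 replicates 1, 2 and 3. It rose by 5.49 on the log2 scale, a value that depends on the pseudocount (standard error 1.33, adjusted p = 0.0399 from limma). The call was held without siHDAC3 replicate 2 and lost without any other single library, with adjusted p from 0.0903 to 0.121.

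In the test of group means, 151 of the 180 genes passed the filter of 0.5 FPKM in at least 3 libraries. The 29 others all had a siNC mean below 10 FPKM, and 26 of them had every siNC library under 0.5 FPKM. The call was an adjusted p under 0.05 (limma on log2(FPKM + 1), Benjamini-Hochberg over 11093 features). These features, called all tested genes here, were drawn from all 18203 of the series, transcripts outside the annotation included. Of the 151 genes, 10 (6.62%) were called higher in siHDAC3, where 4.04% of all tested genes were. Lower calls numbered 9 (5.96%), where 11.1% of all tested genes were called lower. In either direction the share called was 12.6%, compared with 15.1% of all tested genes. All 10 had a siNC mean below 10 FPKM and all 9 a higher one. The rule bears on this division, because every gene had to reach 15 FPKM in a siHDAC3 library. At an unadjusted p under 0.05 there were 46 (30.5%), close to the 31.2% of all tested genes. The median standard error was 1.22, compared with 0.35 over all tested genes, which follows from choosing genes for their spread. Groups without overlap were also counted among the 151: all siHDAC3 libraries were above all siNC libraries in 18 genes (11.9%), with 16.5% over all tested genes, and below in 26 genes (17.2%), with 21.6% over all tested genes. Both shares were near or under the background.

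The calls moved with single libraries. Without siNC replicate 1, 2 or 3, 3, 2 and 1 of the genes were called higher and 4, 4 and 3 lower. Over all tested genes these fits called 1.84%, 2.42% and 1.13% higher and 8.37%, 9.76% and 5.98% lower. Without siHDAC3 replicate 1, 20 of the 151 genes (13.2%) were called higher and 26 (17.2%) lower, where 3.22% and 8.28% of all tested genes were. Without siHDAC3 replicate 2, 17 (11.3%) were called higher and 19 (12.6%) lower, where 3.77% and 9.82% of all tested genes were. Without siHDAC3 replicate 3 the numbers were 6 (3.97%) and 11 (7.28%), where 1.51% and 6.21% of all tested genes were. The genes had been chosen for a spread to which the omitted library contributed, so these higher counts are a description. Of the 19 called genes, 12, 13 and 15 lost the call without siNC replicates 1, 2 and 3, and 8, 4 and 8 lost it without siHDAC3 replicates 1, 2 and 3. Only 3 genes, HaOG208732, HaOG205789 and HaOG208269, were called with every library left out in turn and in all 17 alternative fits, and all 3 were lower in siHDAC3.

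HaOG205789, on scaffold KZ149817.1 from 255169 to 259472, had 1412, 2427 and 2870 FPKM in siNC and 0.175, 23.8 and 2.14 FPKM in siHDAC3. It fell by 8.89 on the log2 scale (standard error 1.05, adjusted p = 0.00338 in the limma fit, 0.000536 to 0.0214 over its alternatives). HaOG208269, on scaffold KZ150067.1 from 257843 to 271210, had 965.8, 1026 and 1470 FPKM in siNC and 0.0353, 36.4 and 0.588 FPKM in siHDAC3. It fell by 8.17 (standard error 1.29, adjusted p = 0.0095 in the limma fit, 0.000491 to 0.0471 over its alternatives). These genes were erratic on the log scale while every siHDAC3 library was far below every control, so their direction was the same in all libraries and the size was not.

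On the higher side, HaOG204622 had 1.45, 0.499 and 3.94 FPKM in siNC and 676.6, 36.6 and 247.1 FPKM in siHDAC3. It rose by 6.14 on the log2 scale (standard error 1.05, limma adjusted p = 0.0124). Its adjusted p was 0.0517 without siHDAC3 replicate 3. HaOG205786, which ends 18018 bases before HaOG205789 begins, had 0, 0 and 0.343 FPKM in siNC and 44.8, 91.1 and 3.94 FPKM in siHDAC3. It was called higher with a log2 change of 4.64 (standard error 1.03, limma adjusted p = 0.0296), a call held only when siHDAC3 replicate 3 was the library left out. The pair shared its highest siHDAC3 library, replicate 2, and had opposite directions. Levels above every control in all siHDAC3 libraries did not always give a call. HaOG214783 had 78.8, 44.2 and 61.4 FPKM in siNC and 120.9, 314.7 and 7225 FPKM in siHDAC3, and HaOG200114 had 0.261, 0.139 and 0.999 FPKM in siNC and 7.80, 39.9 and 1548 FPKM in siHDAC3. Their adjusted p was 0.156 and 0.0709 in the limma fit, with replicate 3 far above the other libraries in both.

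The genes were scattered over the genome, with a few near each other. They lay on 126 scaffolds, and 18 of the 180 (10%) had another of the set within 50000 bases, compared with 291 of the 3891 other eligible genes (7.48%) that had one of the set so near. There were 12 such pairs, 10 of them with the same highest siHDAC3 library and 8 with the same highest and lowest. The pairs are not separate cases, since the same genes on KZ149798.1 and on KZ150082.1 gave several of them. Replicate 2 was highest in 51.1% and replicate 1 lowest in 68.3% of all 180 genes, so distant pairs would often agree too. Whether near genes agreed more often was not tested. On KZ149798.1, HaOG201421, HaOG201424 and HaOG201426 lay within 16608 bases of each other, all lowest in replicate 1 and highest in replicate 2. HaOG201421 had 27.4, 24.5 and 11.7 FPKM in siNC and 3.40, 109.8 and 11.9 FPKM in siHDAC3. HaOG201424 had 63.8, 105.6 and 73.6 FPKM in siNC and 3.76, 81.1 and 16.6 FPKM in siHDAC3. HaOG201426 had 0.180, 0.431 and 0.344 FPKM in siNC and 0.166, 55.6 and 16.0305 FPKM in siHDAC3. The order of the siHDAC3 libraries was the same in the 3 genes, while their siNC levels were far apart. Direct neighbours made 4 pairs. HaOG205993 and HaOG205994, on opposite strands of KZ149992.1 and 509 bases apart, had 106.2, 189.8 and 356.2 and 29.2, 40.8 and 37.6 FPKM in siNC. In siHDAC3 they had 48.0, 1890 and 681.3 and 3.89, 140.2 and 26.3 FPKM, lowest in replicate 1 and highest in replicate 2 for both. The strand setting of the counting is not known from the sources used here, so reads could be shared between near genes of opposite strands.

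HaOG200661 and HaOG200662 on KZ149917.1, both 387 bases in length and 7276 bases apart, were highest in replicate 1. They had 2534, 3121 and 2311 FPKM and 762.4, 1883 and 1567 FPKM in siNC, and 826.3, 80.2 and 18.1 FPKM and 473.0, 17.7 and 19.1 FPKM in siHDAC3. Every siHDAC3 library was below every control for both, with an adjusted p of 0.0545 and 0.0565 from limma. Without siHDAC3 replicate 1 the limma adjusted p was 0.0048 and 0.00194. Without any other single library it was 0.104 to 0.146 for HaOG200661 and 0.103 to 0.164 for HaOG200662. Both genes were chosen for a spread in which replicate 1 was the high library, so leaving it out narrows that spread. HaOG200670 on the same scaffold, from 144591 to 145755, was also highest in replicate 1 and had the opposite direction, with 1.39, 4.98 and 3.98 FPKM in siNC and 348.0, 14.998 and 109.8 FPKM in siHDAC3. It rose by 4.36 on the log2 scale (standard error 1.08, adjusted p = 0.0421 from limma), a call likewise held without siHDAC3 replicate 2 and lost without any other library, with adjusted p from 0.0673 to 0.127. Sharing a scaffold and a highest library thus did not mean sharing a direction.

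Scaffold KZ149803.1 held 7 of the genes among its 39 eligible genes, and was picked for description after its values were seen. All 7 had a siNC mean below 10 FPKM, and their siHDAC3 libraries stood in different orders. HaOG213045 had 0, 0.0969 and 0.116 FPKM in siNC and 0.0561, 133.4 and 127.4 FPKM in siHDAC3. HaOG213103 had 0, 0.0995 and 0 FPKM in siNC and 4.61, 0.0818 and 335.1 FPKM in siHDAC3. HaOG213031 had 6.398, 9.92 and 11.8 FPKM in siNC and 44.0, 0.0707 and 0.0965 FPKM in siHDAC3. The 3 genes were thus high in replicates 2 and 3, mainly in replicate 3 and in replicate 1 alone. In HaOG213103 replicate 1 was also above every control.

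In length the 180 genes were like other genes. Their median transcript length was 1324.5 bases, with quartiles of 738 and 2049, compared with 1353 bases in the other eligible genes and 1347 in all annotated genes. On the plus strand lay 53.9% of them. The median span from start to end on the scaffold was 4192 bases, compared with 4504 in the other eligible genes.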

How the data were processed

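RNA of whole larvae was sequenced in 6 libraries. The authors deposited FPKM values for 18203 features with length and position. The rule was applied to the 17082 annotated genes, while the limma fits and the fragment totals drew on all 18203 features. Columns marked CK were taken as siNC and columns marked siHA5 as siHDAC3, the only groups of the series, siRNA-5 being the one the study injected, with replicate numbers from the column names. The submitters' processing notes name Bowtie 0.12.2 and the mouse builds mm8 and mm9, and how these bear on a bollworm table is not stated. The sources used here do not state the counting tool or the bollworm build. The library kit is given differently by the labels and by the study.

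FPKM multiplied by length gave whole fragments within 0.1, so fragments and divisors were recovered. The divisors, 7751250 to 9717220 for siNC and 11829400 to 16787200 for siHDAC3, differ from the fragment sums, so the deposited FPKM carry the authors' own scaling. Fragments give counting error only.

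The rule was applied with Python 3.11.15, numpy 2.4.6 and pandas 2.3.3, with a pseudocount of 1. Group means were tested with limma 3.58.1 in R 4.3.3 on log2(FPKM + 1), with a variance trend, after a filter of 0.5 FPKM in 3 libraries. Changes on this scale are understated at low levels. The fit was tested on simulated data drawn with the typical spread of tested genes. That setting is unlike the wide spread of the chosen genes, so it says nothing of them. Named genes were the widest and the median gene of each group, the genes nearest each threshold and the longest runs of consecutive genes. The others (the 3 with most siNC fragments, called genes, genes without siNC fragments and genes picked by scaffold) were chosen after their values were seen. The members and lists were chosen with earlier results of these data known. Alternatives were other pseudocounts, thresholds, filters, scalings and variance models, and libraries left out.

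Same-numbered siNC and siHDAC3 libraries did not deviate together (correlations of -0.0752, 0.0705 and -0.0108 for numbers 1, 2 and 3), so the numbers were not taken as pairs.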

Additional observations from a re-analysis of the deposited data

Results flagged for a closer look

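The rule above was not applied to the 1121 transcripts listed outside the annotation, though they did enter the limma fits and the fragment totals. Among them, 9 met the same rule, 0.803% compared with 1.05% of annotated genes. In all 9 the highest siHDAC3 library was above every siNC library. Where every siNC library was under 15 FPKM the rule fixes this, as the highest siHDAC3 library had to reach 15 FPKM. The 9 are given because the 180 genes were drawn from annotated genes only. The highest library was siHDAC3 replicate 3 in 7 of them, and replicates 1 and 2 in 1 each, while replicate 1 was lowest in 7. The transcript on KZ149900.1 from 700575 to 703200 had 281.1, 160.8 and 193.7 FPKM in siNC and 4.63, 58.8 and 627.7 FPKM in siHDAC3. A transcript on KZ149939.1 with no siNC fragment had 0.337, 21.5 and 37.5 FPKM in siHDAC3. Of the 9, 5 share a scaffold with one of the 180 genes. A transcript on KZ150099.1 lies 8871 bases from HaOG209435, and both were lowest in replicate 1 and highest in replicate 3. Another, on KZ149914.1, lies 1466 bases from HaOG202688, and both were highest in replicate 1, with the lowest library replicate 3 for the transcript and replicate 2 for the gene. The transcript on KZ149817.1 lies 294181 bases from HaOG205824 and differs from it in both, highest in replicate 3 and lowest in replicate 1 where the gene was highest in replicate 2 and lowest in replicate 3.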

How the results depend on the processing

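The number of genes that entered depended on the pseudocount and the limits. From 180 it moved to 530 with a pseudocount of 0.1 (156 shared) and 61 with 5 (57 shared), to 450 and 78 with a siHDAC3 limit of 8 and 32, and to 91 with only siNC means of at least 10 FPKM. Leaving out single libraries gave 32 to 227. The mirrored set of 125 moved to 336, 62, 294 and 56 under the same pseudocounts and limits, and to between 22 and 149 with 1 library left out. The share lowest in siHDAC3 replicate 3, 6.11%, was 11.1% with a pseudocount of 0.1 and 9.33% with a limit of 8. Replicate 1 stayed the most frequent lowest library and replicate 2 the most frequent highest under every pseudocount, limit and scaling run and with each siNC library left out. Of 304 alternatives run on 19 named genes, 261 kept the gene in the set and 43 did not.

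Of the tested members, 10 were called higher by limma. This became 4 without the filter on low values, 19 with scaling to the sum (which moves the median log2 change of all genes to 0.68), 24 with library weights, 1 with voom on fragments, 0 at an adjusted p under 0.01 (46 members in either direction had an unadjusted p under 0.05), and 1 to 20 with 1 library left out. The 9 called lower became 5 with a pseudocount of 0.1, 20 with library weights, 3 at an adjusted p under 0.01 and 3 to 26 with 1 library left out. At an adjusted p under 0.01 the share of all tested genes is not given here, so those member counts have no background. Calls over all tested genes moved too, from 448 higher and 1232 lower to 312 and 1003 without the filter, 2868 and 922 with scaling to the sum, 1076 and 1850 with library weights, 322 and 989 with voom and 462 and 1279 with a pseudocount of 0.1. With the replicate block 6 members were called higher, with 177 of all tested genes, and of the 19 called members 6 lost the call, though the labels' numbers do not pair the libraries. The causes of these moves were not tested. With 3 libraries a group, the siHDAC3 order of any gene rests on single libraries.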
